A study of Mus musculus with 12 samples.

Results

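The TRIM family is a family of E3 ubiquitin ligases, the enzymes that choose the proteins to which ubiquitin is attached. A TRIM protein carries a RING finger that binds a ubiquitin-loaded E2 enzyme, B-box zinc fingers and a coiled coil at its N-terminal end, and a C-terminal domain that differs between classes and binds the target. In skeletal muscle the family is best known for the MuRF group, which acts on sarcomere proteins, for Trim32, which is mutated in a limb-girdle muscular dystrophy, and for Trim72, which takes part in repair of the sarcolemma, while many members with a PRY-SPRY domain act in antiviral defence.

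The members were all genes whose symbol is Trim, a number and optional lower-case letters. They numbered 56 of the 17505 genes in 2 tables of mouse RNA-seq, with 53 in the table of muscle stem cells (MuSCs) and myoblasts, 51 in the table of WT and Nedd4L-cKO MuSCs, and 48 in both. Of these, 50 and 45 passed the filter on low values (10 or more normalized counts in 3 or more of the 6 libraries) and were tested. The first table held freshly sorted MuSCs of 3 WT mice (replicates 04 to 06) and myoblasts grown from the same mice for 3 days in growth medium with 20% serum and bFGF. The second held MuSCs of male mice at 5 to 6 weeks of age, 3 WT and 3 Nedd4L-cKO (replicates 01 to 03), where the cKO genotype was Nedd4L fl/fl Pax7 cre/+. In that model Cre is driven by Pax7 and removes exon 15 of Nedd4L in Pax7-expressing cells and in all cells derived from them, which include the myofibres, and the sources used here do not state whether the WT mice carried Cre. Each library came from 1000 cells positive for ITGA7 and Hoechst and negative for CD31, CD45, CD11b and SCA1, or from 1000 cultured cells. The p-values rest on the spread between the libraries within a group. In the first table both groups came from the same mice, and the test did not pair them. The spread among its myoblast libraries can hold differences between cultures as well as between mice.

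The targeted gene and the stem cell markers went with the labels, while markers of some other cell types were present as well. Nedd4l was 66.7 to 96.4 RPM in the WT and 22.5 to 36.3 RPM in the cKO libraries, although only 1 exon is deleted. Muscle stem cell markers summed to 6887 to 9809 RPM in fresh MuSCs and to 832 to 927 RPM in myoblasts, and leukocyte markers to at most 8.92 RPM in both, with Cd74, Lyz2 and Tyrobp among the 5 of 12 leukocyte markers that had no value in that table. Fresh MuSCs also held 2130 to 2346 RPM of fibro-adipogenic progenitor markers and 1096 to 1415 RPM of glial and mural markers. In myoblasts the fibro-adipogenic sum was lower, at 122 to 190 RPM. The glial and mural sum was higher there, at 1636 to 2413 RPM, with 0 of 6 tested genes called higher and 1 called lower. In the other table the leukocyte sum reached 40.4 RPM in 1 WT library and at most 10.4 RPM in Nedd4L-cKO. Stem cell markers there summed to 6483 to 10741 RPM in WT and 5402 to 8788 RPM in Nedd4L-cKO. Glial and mural markers summed to 1151 to 1896 and 2141 to 3142 RPM, with 0 of 8 called. What part other cell types have in the libraries was not tested. Totals of the deposited normalized counts ran from 33189802 to 50687122 per library, and the read depth behind them is unknown. RPM is in these data the normalized count scaled by the mean total of the 6 libraries of its table, so the RPM of the 2 tables are on separate scales.

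TRIM transcripts were a small part of each library, and their sum was higher in myoblasts. Summed over the members, the level was 1137 ± 79.2 RPM in fresh MuSCs and 1809 ± 56.4 RPM in myoblasts (mean ± SD, n = 3 each). In fresh MuSCs 23 of the 53 listed members reached a mean of 10 RPM and 14 stayed under 1 RPM. The higher sum of the myoblasts lay in 6 genes, grouped here after their values were seen. Trim35, Trim16 and the 4 muscle-specific genes together held 196 ± 38.8 RPM in MuSCs and 1007 ± 59.5 RPM in myoblasts, while the 47 other members went from 941 ± 42.3 to 802 ± 82.1 RPM.

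Per kilobase of exon, which allows levels of different genes to be compared, Trim47 was first in fresh MuSCs with 39.1 RPM per kilobase (36.0 to 43.7 over the 3 libraries). Trim28, the corepressor that KRAB zinc finger proteins bring to chromatin, followed with 29.8 (23.0 to 39.9), then Trim35 with 27.2 (22.4 to 34.4), Trim8 with 18.4 (17.5 to 19.9) and Trim59 with 13.4 (8.04 to 18.4). Trim47 and Trim28 overlapped in range, as did Trim28 and Trim35 and likewise Trim8 and Trim59, whereas every Trim35 value was above every Trim8 value. In the WT MuSCs of the other table the first 4 places went to the same genes, with Trim47 at 17.9, Trim35 at 14.9, Trim28 at 14.3 and Trim8 at 12.4 RPM per kilobase, and Trim13 came next at 9.87. The order depended on the length used. Per kilobase of the longest transcript Trim35 was first in both tables, with 49.6 (40.9 to 62.7) against 48.5 (44.7 to 54.3) for Trim47 in fresh MuSCs and 27.2 against 22.3 in WT MuSCs, and Trim2 (12.2) came before Trim13 (11.6) in the WT MuSCs. In myoblasts Trim35 was first at 83.7 RPM per kilobase, and Trim54, which was rank 43 of 53 in MuSCs, was second at 34.9. The annotated span of Trim47 overlaps that of its neighbour Trim65 on the same strand. Whether their exons overlap was not examined, and reads of any shared exon could be split between them.

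**Figure D1:**
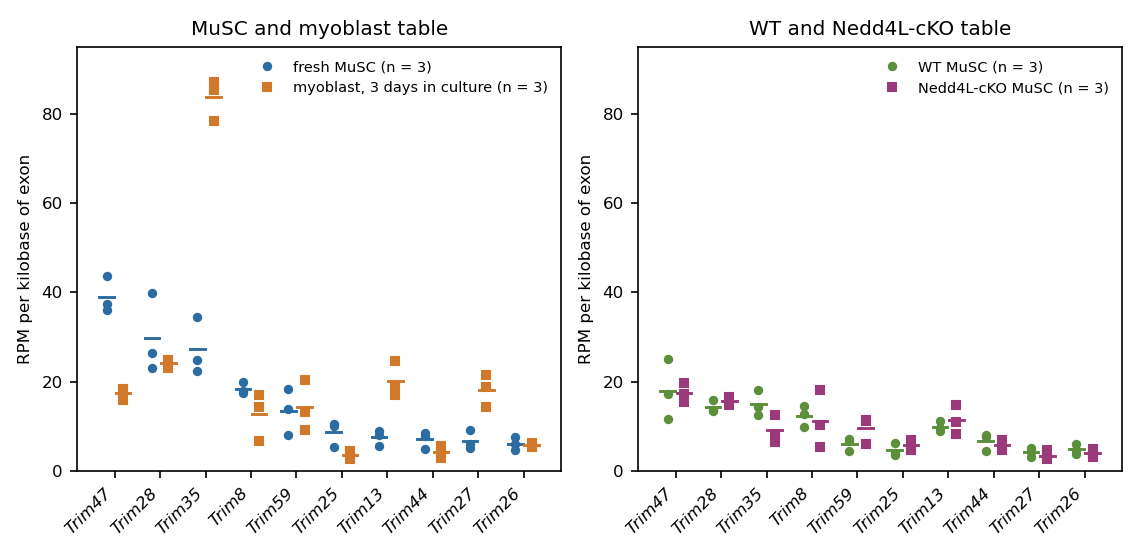
Level per kilobase of exon (RPM per kilobase, linear axis from 0) of the 10 TRIM genes that rank highest in fresh MuSCs. Points are libraries, horizontal lines are the means of 3 libraries, and the tables have separate RPM scales. Trim35 stands at 83.7 in myoblasts against 27.2 in fresh MuSCs, and Trim47 at 17.4 against 39.1.

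To ask how the family differs between MuSCs and the myoblasts they give rise to, the 2 states were compared with limma on log2(RPM + 1), and genes with a Benjamini-Hochberg adjusted p of 0.05 or less over all 15345 tested genes were called. Of the 50 tested TRIM genes 25 were called, 13 higher and 12 lower in myoblasts. Over all tested genes 42.8% were called, 22.2% higher and 20.6% lower, so the family's 50% and its split lie near the rest of the transcriptome. When the absolute log2 fold change also had to reach 1, 23 TRIM genes (46%) passed against 31.8% of all genes, a wider gap. The 3 values of one state lay wholly outside those of the other for 30 of the 50 members, and for 55.2% of all genes. The median log2 fold change was -0.05 over the members and 0.04 over all tested genes. The next paragraphs and the plot of tested TRIM genes by class describe the classes, which were chosen with earlier results of these data known. All 4 muscle-specific genes were called higher, and of the 10 antiviral PRY-SPRY genes 6 were called lower and 0 higher. The PHD-bromodomain, NHL repeat and other PRY-SPRY classes held calls in both directions. Since these are bulk libraries, fewer cells of a type and less RNA per cell cannot be told apart.

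**Figure D2:**
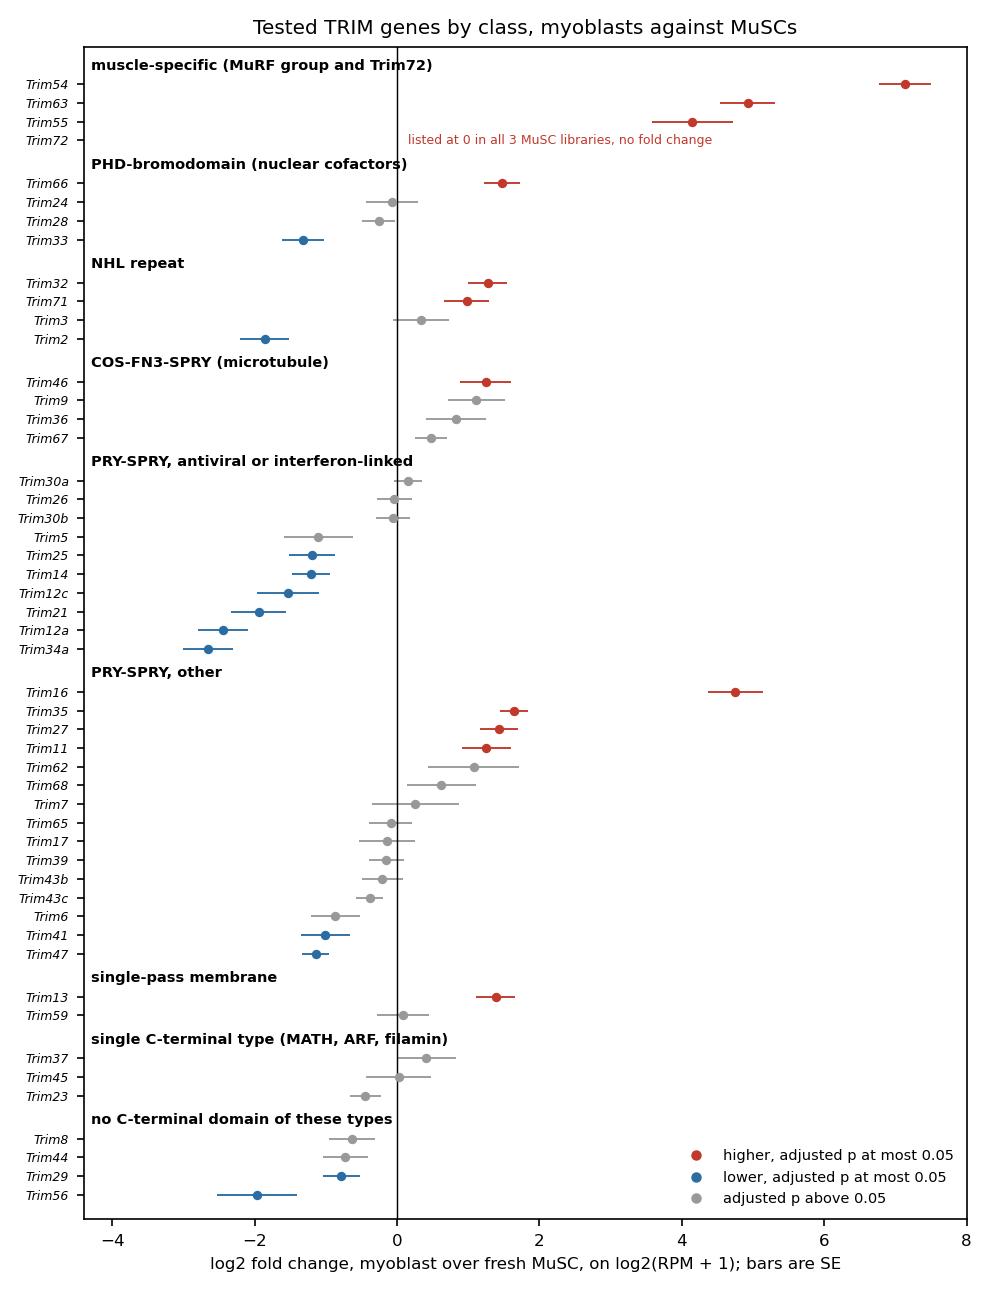
Log2 fold change between myoblasts and fresh MuSCs (x axis, on log2(RPM + 1)) of the tested TRIM genes, with bars of 1 SE, in 9 classes. The classes are set by C-terminal domain, except that the muscle-specific class is set by tissue and the PRY-SPRY genes are divided by antiviral or interferon link. All 4 muscle-specific genes are higher in myoblasts (Trim72, listed at 0 in MuSCs, has no fold change), 6 of the 10 antiviral PRY-SPRY genes are lower, and no gene of that class is called higher.

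The muscle-specific class was at or near 0 in fresh MuSCs, except for Trim55, and present in every myoblast library. All 4 of its genes were called higher, and their summed level went from 0.793 to 8.46 RPM in MuSCs to 298 to 399.7 RPM in myoblasts. Trim54 (chr5:31273911-31298846, plus strand, GRCm39), a MuRF protein that binds microtubules and the sarcomere, stood at 0, 1.44 and 0.164 RPM in MuSC libraries 04, 05 and 06 and at 209.5, 174 and 212 RPM in myoblast libraries 04, 05 and 06. No other TRIM gene differed as much, with a log2 fold change of 7.13 ± 0.37 (SE, adjusted p = 3.45e-06). Trim63 (chr4:134042393-134056948, plus strand), the MuRF ligase that marks myofibrillar proteins for the proteasome in muscle atrophy, was 0, 0.0805 and 0.666 RPM in MuSCs and 24.5, 35.9 and 52.5 RPM in myoblasts (4.92 ± 0.39, adjusted p = 2.54e-05). Trim55 (chr3:19698571-19746771, plus strand), the MuRF protein that accompanies titin and myosin in sarcomere assembly, was 0.793, 5.73 and 7.63 RPM in MuSCs and 54.5, 88.1 and 116 RPM in myoblasts (4.15 ± 0.57, adjusted p = 0.000545). The groups did not overlap for any of the 3 MuRF genes, and MuSC library 04 had the lowest Trim55 value. Trim72 (chr7:127603062-127611190, plus strand), the membrane repair protein, was listed at 0 in all 3 MuSC libraries and at 9.07, 12.1 and 18.6 RPM in the myoblasts (adjusted p = 4.97e-05), and no fold is given against 0.

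The libraries in which these genes were high also held the transcripts of muscle differentiation. Differentiating myoblast markers summed to 1519 to 2142 RPM in MuSCs and 8302 to 25174 RPM in myoblasts, with 11 of 12 called higher and 1 lower, and mature myofibre markers to 623 to 952 and 14936 to 35373 RPM, with 17 of 20 called higher and none of them at 0 in either group. Of the 7 other genes listed for membrane repair, Cav3, the muscle caveolin (log2 fold change 6.40), Dysf, the membrane repair protein dysferlin (4.37), and Anxa1 (2.84) were called higher, and Anxa5 (-2.49) and Anxa6 (-0.95) lower. Among the 9 genes listed around Trim63 in atrophy, Myog (2.51) and Fbxo21 (1.87) were called higher and Foxo3 (-2.62), Klf15 (-2.0), Nr3c1 (-1.82) and Fbxo30 (-1.48) lower. Foxo3 and Nr3c1, the glucocorticoid receptor, are known to activate Trim63 in atrophying muscle, and Myog is known to activate it after denervation. Fbxo32, the other E3 ligase best known for atrophy, had 4.15 to 28.9 RPM in MuSCs and 21.8 to 39.9 RPM in myoblasts and was not called (1.51 ± 0.60, adjusted p = 0.0694). What part the amount of differentiated cells in each culture has in the TRIM values was not tested.

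The upstream sequences of these muscle genes are shown because E-box motifs read by myogenic factors occur in part of them. The windows are the 250 bases before the RefSeq start on the coding strand (GRCm38.p6), which lie at chr5:31116362-31116611 for Trim54, chr4:134314870-134315119 for Trim63 and chr7:128004128-128004377 for Trim72, all on the plus strand. Capitals mark CAGCTG, the E-box form preferred by MyoD, which reads the same on both strands.
Trim54: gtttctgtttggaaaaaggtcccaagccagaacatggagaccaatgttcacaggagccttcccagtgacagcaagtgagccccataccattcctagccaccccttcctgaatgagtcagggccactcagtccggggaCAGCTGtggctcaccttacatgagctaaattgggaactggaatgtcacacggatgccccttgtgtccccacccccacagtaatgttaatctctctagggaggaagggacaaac
Trim63: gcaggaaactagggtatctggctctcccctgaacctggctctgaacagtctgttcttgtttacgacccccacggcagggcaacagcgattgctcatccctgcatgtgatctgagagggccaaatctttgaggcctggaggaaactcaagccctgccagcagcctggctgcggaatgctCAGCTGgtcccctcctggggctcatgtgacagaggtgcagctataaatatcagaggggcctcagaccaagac
Trim72: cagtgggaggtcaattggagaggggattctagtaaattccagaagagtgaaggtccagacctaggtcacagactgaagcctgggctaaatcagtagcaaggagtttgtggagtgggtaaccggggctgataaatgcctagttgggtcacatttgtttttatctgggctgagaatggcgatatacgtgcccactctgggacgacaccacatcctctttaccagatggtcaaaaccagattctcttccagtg
CAGCTG began 113 bases before the start of Trim54 and 72 bases before that of Trim63, and these letters were not in the window of Trim72. No RefSeq window was found for Trim55. The letters CAGCTG were in the window of 12 of the 42 TRIM genes with a RefSeq window and of 14.7% of all 27025 genes with one. Of these TRIM genes, Trim32, Trim46, Trim54 and Trim63 were called higher in myoblasts and Trim2, Trim12a and Trim12c lower. Trim5, Trim7, Trim9, Trim26 and Trim39 were not called. A MEF2 motif was in the windows of 1 TRIM gene (Trim39) and of 3.42% of all genes. These matches describe letters and not binding.

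Outside the muscle-specific class, the rises of Trim16 and Trim35 were the largest on the log2(RPM + 1) scale, which holds down changes of genes near 0 RPM. Trim16 (chr11:62711057-62741634, plus strand), a protein with B-boxes and no RING that acts in autophagy of damaged lysosomes, was 2.13, 1.16 and 5.01 RPM in MuSCs and 109, 94.1 and 75.2 RPM in myoblasts (log2 fold change 4.75 ± 0.39, adjusted p = 3.28e-05). Trim35 (chr14:66534433-66548873, plus strand), first known from blood cell lineages, was 237, 171 and 155 RPM in MuSCs and 603, 542 and 589.9 RPM in myoblasts (1.64 ± 0.20, adjusted p = 0.000283). Trim35 alone made up 16.4% ± 2.68 of the summed TRIM level in MuSCs and 32.0% ± 2.55 in myoblasts. Trim27, which ubiquitinates the WASH complex on endosomes, was 54.0, 30.3 and 36.5 RPM in MuSCs and 128, 112 and 85.7 RPM in myoblasts (1.43 ± 0.27, adjusted p = 0.00275). Every myoblast library was above every MuSC library for all 3. Trim13, a ligase of the endoplasmic reticulum membrane (1.38), Trim11 (1.25) and Trim46, which bundles axonal microtubules (1.25), were also called higher. The call of Trim11 was lost without MuSC library 05 or 06 or myoblast library 05, and that of Trim46 without MuSC library 04 or 05 or myoblast library 05 or 06.

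**Figure D3:**
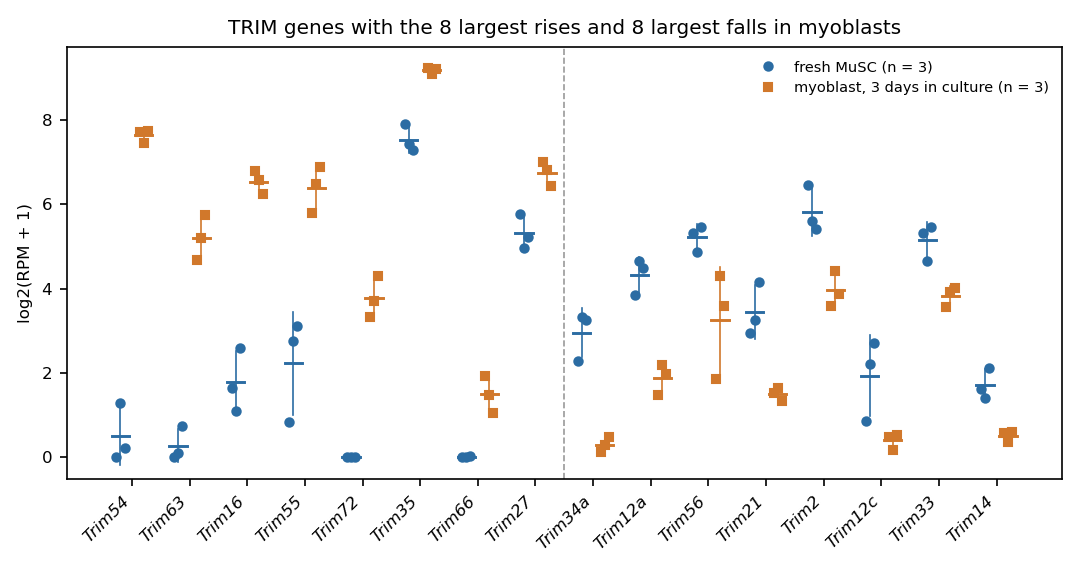
Level in each library (log2(RPM + 1)) of the 8 called TRIM genes with the largest rises, left of the dashed line, and the 8 with the largest falls in myoblasts. Points are libraries, horizontal lines are means and vertical lines 1 SD of 3 libraries. Trim54, Trim63, Trim72 and Trim66 lie at or near 0 in fresh MuSCs, and no gene has overlapping groups. Trim72 and Trim66 passed the filter on low values only through the myoblasts, which fixed their separation in advance.

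The PHD-bromodomain class, whose members act as transcription cofactors, was divided. Trim33, which binds Smad proteins in TGF-beta signalling, was 39.3, 24.1 and 43.1 RPM in MuSCs and 10.8, 14.1 and 15.1 RPM in myoblasts (-1.32 ± 0.30, adjusted p = 0.00732). Trim66 was 0, 0 and 0.0315 RPM in MuSCs and 2.83, 1.81 and 1.08 RPM in myoblasts, a rise at a level of a few RPM (1.48 ± 0.25, adjusted p = 0.00179) that was 4.10 with a pseudocount of 0.1 RPM, above Trim35 on that scale. Like Trim72, it fell below the filter on low values, which needs 3 libraries, when any 1 myoblast library was left out. Trim28 was 172, 114 and 99.1 RPM in MuSCs and 106, 99.8 and 107 RPM in myoblasts, and Trim24, a nuclear receptor cofactor, was 10.8, 9.36 and 14.1 RPM and 6.35, 13.6 and 13.9 RPM. Neither was called, their groups overlapped, and the 95% interval of the log2 fold change was -0.78 to 0.26 for Trim28. Of the 10 genes listed with Trim28 in KRAB silencing, Chd3 (2.86) and Cbx5 (0.66) were called higher, and the genes called lower included Hdac2 (-0.75) and Cbx1 (-0.63).

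The NHL repeat class, which includes RNA-binding ligases, also held changes in both directions. Trim32, which ubiquitinates actin and other myofibrillar proteins, was 20.2, 18.1 and 12.9 RPM in MuSCs and 50.2, 44.95 and 32.7 RPM in myoblasts (1.27 ± 0.28, adjusted p = 0.00613). Trim2, known as a ligase for neurofilament light chain in neurons, was 86.7, 47.5 and 41.4 RPM in MuSCs and 11, 20.3 and 13.8 RPM in myoblasts (-1.86 ± 0.34, adjusted p = 0.00273). The states were fully separated for both. Trim71, a translational repressor of early embryos and a target of let-7, was 0.0306, 0.323 and 0.0648 RPM in MuSCs and 0.334, 1.62 and 2.16 RPM in myoblasts (0.98 ± 0.32, adjusted p = 0.0355). This call at very low level was lost with any library left out except myoblast 04 and with limma's plain moderation. Trim3 was 27.0, 15.8 and 14.3 RPM in MuSCs and 13.0, 32.3 and 30.1 RPM in myoblasts and was not called (adjusted p = 0.521). Of the microtubule class with a COS box, Trim46 was called, and Trim9, Trim36 and Trim67 had log2 fold changes of 1.11, 0.83 and 0.48 with adjusted p from 0.0516 to 0.143.

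Most of the antiviral PRY-SPRY genes were lower in myoblasts. Of the 10 tested, 6 were called lower and 0 higher by limma (7 lower and 0 higher at an unadjusted p under 0.05, and 0 higher also with limma's plain moderation), with a median log2 fold change of -1.20. Over all tested genes 20.6% were called lower and 22.2% higher. Trim34a was 3.88, 9.03 and 8.53 RPM in MuSCs and 0.0907, 0.231 and 0.393 RPM in myoblasts (-2.65 ± 0.35, adjusted p = 0.000459). Trim12a, a mouse relative of the retroviral restriction factor Trim5, was 13.4, 24.0 and 21.4 RPM in MuSCs and 1.78, 3.54 and 2.93 RPM in myoblasts (-2.45 ± 0.35, adjusted p = 0.000713). Trim21, the cytosolic antibody receptor, was 6.67, 8.50 and 16.8 RPM in MuSCs and 1.88, 2.15 and 1.52 RPM in myoblasts (-1.94 ± 0.38, adjusted p = 0.00372). The lowest MuSC library was above the highest myoblast library for each of these 3 genes.

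Trim12c, Trim14 and Trim25 were the other called falls of this class. Trim12c was 0.819, 3.68 and 5.60 RPM in MuSCs and 0.406, 0.132 and 0.452 RPM in myoblasts (-1.53 ± 0.44, adjusted p = 0.0209). Trim14, an adaptor of antiviral signalling at mitochondria, was 2.08, 1.65 and 3.37 RPM in MuSCs and 0.501, 0.280 and 0.521 RPM in myoblasts (-1.20 ± 0.27, adjusted p = 0.00637). Trim25, the ligase that activates the viral RNA sensor RIG-I, was the best expressed of the called falls of the class with 31.1, 60.5 and 57.5 RPM in MuSCs and 14.8, 25.8 and 21.7 RPM in myoblasts (-1.19 ± 0.33, adjusted p = 0.0172). The groups of these 3 genes did not overlap, although the calls of Trim12c and Trim25 were lost with either MuSC library 05 or 06 left out, and that of Trim12c also without myoblast library 05.

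The remaining 4 tested genes of the class were not called. Trim5 was 0.262, 4.96 and 1.97 RPM in MuSCs and 0.495, 0.168 and 0.282 RPM in myoblasts (-1.11 ± 0.48, adjusted p = 0.0942), and MuSC library 04, with the lowest value, overlapped the myoblasts. Without that library Trim5 had a log2 fold change of -1.69 and an adjusted p of 0.00717. Trim26, which tunes interferon-beta production, was 31.8, 51.9 and 41.7 RPM in MuSCs and 39.1, 43.5 and 37.4 RPM in myoblasts, with a 95% interval of -0.58 to 0.51 for its log2 fold change. Trim30a was 0.0146, 0 and 0.331 RPM in MuSCs and 0.0177, 0.371 and 0.344 RPM in myoblasts, and Trim30b 0.626, 0.678 and 0.519 RPM and 1.09, 0.191 and 0.463 RPM, both under a mean of 1 RPM in each state. Trim30a and Trim30b, Trim34a and Trim34b, and Trim12a and Trim12c are pairs of similar copies among which estimated counts can be divided, so the division within each pair is uncertain.

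Genes of the interferon response moved with this class. Of 22 tested, 14 were called lower and 0 higher by limma (16 lower and 0 higher at an unadjusted p under 0.05), with a median log2 fold change of -2.40, and their summed level was 716 to 1172 RPM in MuSCs and 76.5 to 122 RPM in myoblasts. Irf1 (-5.30), a transcription factor of this response, was among them, and Isg15 and Ifit1, with -0.83 and -2.07, were not called. Among the 9 E2 enzymes listed as partners of RING TRIMs, Ube2l6, the E2 of ISG15 conjugation, fell by 3.32 on the log2 scale, and Ube2w (-1.32) and Ube2d2a (-0.61) were the other called falls. Ube2n and its cofactors Ube2v1 and Ube2v2 had log2 fold changes of -0.15, -0.07 and -0.05 and were not called. Markers of fibro-adipogenic progenitors were lower in the myoblasts too, with sums of 2130 to 2346 and 122 to 190 RPM, 4 of 6 tested called lower, 1 called higher and Dpt at 0 in all myoblast libraries. The part that other cell types have in the antiviral TRIM values was not tested.

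Several of these genes lie side by side. Trim6, Trim34a, Trim5, Trim12a, Trim34b, Trim12c, Trim30b and Trim30a fill chr7:103868000-104114407 (GRCm39), and of the 7 tested between myoblasts and MuSCs 3 were called lower and 0 higher, with log2 fold changes from -2.65 to 0.16. Over all tested genes 42.8% were called in either direction and 20.6% were called lower. The share of the cluster called in either direction lay near that of all genes, while its share called lower lay above it. With 7 genes, some of them similar copies, no reading is drawn from this. The upstream windows of 3 cluster members and of Trim26 are shown because they hold or lack an interferon-stimulated response element, the sequence bound by STAT and IRF factors, searched as GAAA, any 2 bases, GAAA on both strands. Capitals mark that element and CAGCTG in the 250 bases before the RefSeq start (GRCm38.p6). The windows are chr7:104288107-104288356 for Trim5 and chr7:104353350-104353599 for Trim12c on the minus strand, and chr7:104244207-104244456 for Trim34a and chr17:36836896-36837145 for Trim26 on the plus strand.
Trim5: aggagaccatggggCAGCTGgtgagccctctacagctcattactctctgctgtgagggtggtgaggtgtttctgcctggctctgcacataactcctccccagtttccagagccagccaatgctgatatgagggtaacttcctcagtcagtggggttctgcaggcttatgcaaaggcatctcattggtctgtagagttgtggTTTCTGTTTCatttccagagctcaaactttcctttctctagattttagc
Trim12c: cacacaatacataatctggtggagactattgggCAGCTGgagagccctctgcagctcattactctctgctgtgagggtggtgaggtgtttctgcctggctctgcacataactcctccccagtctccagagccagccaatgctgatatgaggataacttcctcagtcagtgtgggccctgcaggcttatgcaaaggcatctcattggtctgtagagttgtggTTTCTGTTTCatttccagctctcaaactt
Trim34a: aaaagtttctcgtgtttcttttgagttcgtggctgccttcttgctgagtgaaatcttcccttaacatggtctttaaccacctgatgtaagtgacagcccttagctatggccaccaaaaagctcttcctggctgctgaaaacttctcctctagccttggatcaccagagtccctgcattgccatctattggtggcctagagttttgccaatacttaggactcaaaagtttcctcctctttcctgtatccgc
Trim26: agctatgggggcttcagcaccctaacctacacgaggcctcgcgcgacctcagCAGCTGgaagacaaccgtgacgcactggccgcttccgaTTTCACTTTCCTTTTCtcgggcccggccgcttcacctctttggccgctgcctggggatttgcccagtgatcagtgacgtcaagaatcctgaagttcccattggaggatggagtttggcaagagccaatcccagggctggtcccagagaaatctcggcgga
The element began 49 bases before the start of Trim5, 29 bases before that of Trim12c and, as 2 overlapping copies, 160 and 154 bases before that of Trim26. These letters were in the windows of 4 of the 42 TRIM genes (Trim5, Trim12c, Trim26 and Trim30a, at 36 bases) and of 3.46% of all genes. Of the 4, only Trim12c was called lower in myoblasts, and the windows of Trim34a, Trim12a and Trim21, which were called lower as well, held none. The windows of Trim5 and Trim12a shared a run of 191 identical bases, and each shared a run of 71 bases with that of Trim12c, so these windows are not independent examples of the motif. The CAGCTG of the longer run began 236 bases before the start of Trim5 and 177 bases before that of Trim12a, which places the annotated start of Trim12a before the stretch that holds the element in Trim5.

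Trim56 and Trim29, without a C-terminal domain of the listed types, and Trim47 and Trim41, of the PRY-SPRY genes outside the antiviral class, were called lower too. Trim56, an RNA-binding ligase of antiviral signalling without a PRY-SPRY domain, was 39.1, 28.1 and 43.0 RPM in MuSCs and 2.60, 18.8 and 11.1 RPM in myoblasts (-1.97 ± 0.56, adjusted p = 0.0202), and its call was lost without MuSC library 04 or 06, while without myoblast library 04 the log2 fold change was -1.26 and the call stayed. Trim47 was 103, 120.1 and 98.9 RPM in MuSCs and 43.5, 49.9 and 50.1 RPM in myoblasts (-1.15 ± 0.19, adjusted p = 0.00153). Both were separated between the states. The falls of Trim41 (-1.01) and Trim29 (-0.78) were less stable. With the replicate number as a block, which fits each culture with the MuSCs of its number, their adjusted p was 0.0754 and 0.0714, while Trim9 entered at 0.0438, and 24 members were called. The call of Trim41 was also lost with own-total scaling and with any 1 of the 6 libraries left out, and that of Trim29 with limma's plain moderation and without MuSC library 05 or 06 or myoblast library 05 or 06. Trim8, which acts in cytokine signalling, was 83.2, 81.7 and 93.1 RPM in MuSCs and 31.5, 79.4 and 66.9 RPM in myoblasts and was not called (adjusted p = 0.148). Trim59 was 33.4, 57.3 and 76.4 RPM in MuSCs and 38.0, 84.3 and 55.0 RPM in myoblasts (adjusted p = 0.868). Outside the Trim symbols, Pml was the 1 of 5 tested TRIM proteins with other names that was called, at 7.74 to 8.95 RPM in MuSCs and 19.0 to 25.3 RPM in myoblasts (1.32).

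To ask whether loss of Nedd4L, itself an E3 ligase of the HECT type, changes the TRIM family in MuSCs, Nedd4L-cKO and WT MuSCs were compared in the same way. A call here needed an adjusted p of 0.05 or less together with an absolute log2 fold change of 1 or more and a mean level of 5 RPM or more. By limma 0 of the 45 tested TRIM genes were called, against 0.653% of 15304 genes, and 0 also with limma's plain moderation. At an unadjusted p under 0.05 there were 6, 4 lower and 2 higher, which is 13.3% of the members against 14.6% of all genes. The values of the 2 genotypes did not overlap for 6 members (19.3% of all genes), 3 lower in Nedd4L-cKO (9.59% of all genes) and 3 higher (9.75%). The number of such members was 13 without WT library 01, 14 without WT library 03 and 12 without Nedd4L-cKO library 02. Fewer values then have to separate for any gene. The share over all genes at these settings is not given here, so no reading is drawn from these counts. Summed over the members the level was 854 ± 58.6 RPM in WT and 732 ± 135 RPM in Nedd4L-cKO, with overlapping ranges.

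The 3 members lower in Nedd4L-cKO without overlap were Trim2, Trim39 and Trim3. Trim2 was 86.0, 105 and 111 RPM in WT and 47.3, 68.7 and 59.2 RPM in Nedd4L-cKO (-0.78 ± 0.25, adjusted p = 0.188). Trim39, which inhibits the anaphase-promoting complex, was 12.7, 17.5 and 13.7 RPM in WT and 4.54, 10.6 and 7.50 RPM in Nedd4L-cKO (-0.92 ± 0.35, adjusted p = 0.265). Trim3 was 12.2, 13.8 and 10.95 RPM in WT and 5.61, 8.91 and 9.95 RPM in Nedd4L-cKO (-0.57 ± 0.33, adjusted p = 0.454). None passed the adjusted threshold. Trim35 and Trim23 had an unadjusted p under 0.05 with overlapping groups, since Nedd4L-cKO library 02 reached the lowest WT value in both. Trim35 was 98.0, 125 and 85.7 RPM in WT and 43.9, 85.8 and 57.2 RPM in Nedd4L-cKO (-0.75 ± 0.29, adjusted p = 0.272). Trim23, which carries a GTPase domain beside its RING, was 36.5, 45.6 and 49.6 RPM in WT and 17.5, 37.4 and 23.1 RPM in Nedd4L-cKO (-0.79 ± 0.31, adjusted p = 0.277).

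The 3 members higher in Nedd4L-cKO without overlap were Trim17, Trim55 and Trim43b. Trim17 had the smallest p of the family and was 0.0540, 0 and 0.165 RPM in WT and 1.10, 1.61 and 0.771 RPM in Nedd4L-cKO (1.00 ± 0.23, adjusted p = 0.0734), under the mean of 5 RPM that a call required. It passed the filter on low values only through its 3 Nedd4L-cKO libraries. Its lack of overlap was thereby fixed in advance, and no reading is drawn from it or from its place by p. The gene overlaps H2ac25 and H3f4 on its own strand and H2bc26 on the other, and with full-length unstranded libraries reads of overlapping genes cannot be told apart by strand. Trim55 was 6.37, 1.07 and 4.02 RPM in WT and 14.1, 7.36 and 7.18 RPM in Nedd4L-cKO (1.25 ± 0.48, adjusted p = 0.269). Trim63 was 0.0717, 0 and 0.281 RPM in WT and 0.260, 0.414 and 0.164 RPM in Nedd4L-cKO. Mature myofibre markers summed to 488 to 774 RPM in WT and 842 to 1090 RPM in Nedd4L-cKO, with 1 of 20 called higher, 1 called lower and none at 0 (11 higher and 1 lower at an unadjusted p under 0.05). What part they have in the Trim55 values was not tested. Trim43b, 1 of 3 near-identical copies, was 2.59, 2.37 and 2.49 RPM in WT and 5.22, 4.01 and 3.44 RPM in Nedd4L-cKO (0.57 ± 0.34, adjusted p = 0.470).

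**Figure D4:**
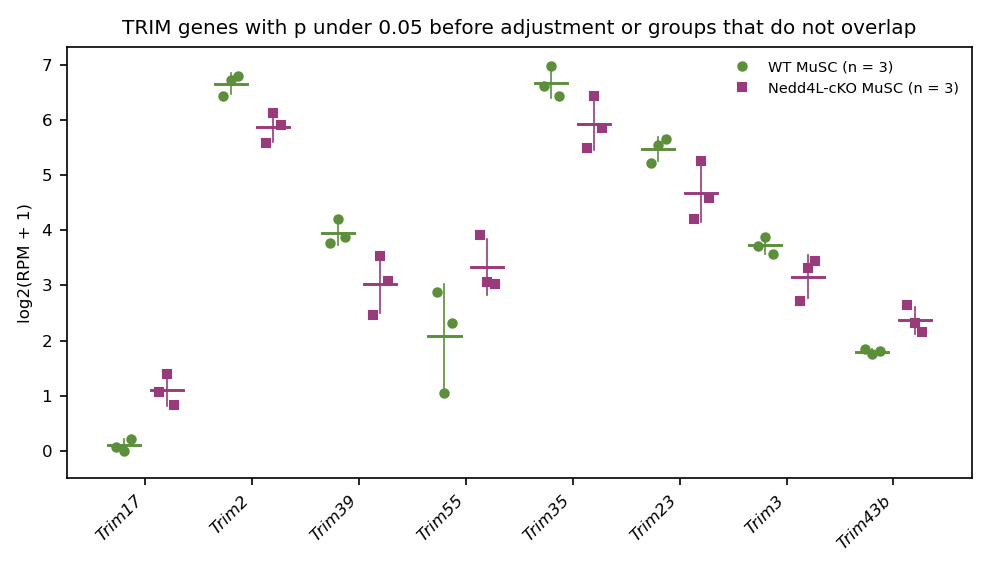
Level in each library (log2(RPM + 1)) of the 8 TRIM genes with an unadjusted p under 0.05 or with WT and Nedd4L-cKO values that do not overlap. Points are libraries, horizontal lines are means and vertical lines 1 SD of 3 libraries, and no gene shown was called. Trim17 is at or near 0 in WT, and Trim35 and Trim23 overlap between the genotypes.

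The antiviral class did not separate the genotypes. Of its 10 tested genes 0 had an unadjusted p under 0.05, 0 were called by limma with either moderation, and the groups of all 10 overlapped, with a median log2 fold change of 0.10 against 0.00152 over all tested genes. Trim25 was 22.8, 20.3 and 36.3 RPM in WT and 26.5, 31.3 and 40.2 RPM in Nedd4L-cKO (95% interval of the log2 fold change -0.34 to 0.97). Trim12a was 15.1, 29.5 and 25.9 RPM in WT and 23.1, 34.7 and 24.1 RPM in Nedd4L-cKO (-0.46 to 0.93). Changes within these intervals remain compatible with the values at this spread. Trim12c was 3.67, 3.99 and 5.95 RPM in WT and 5.29, 5.91 and 8.92 RPM in Nedd4L-cKO, and Trim5 was 2.75, 0.887 and 2.73 RPM and 2.74, 3.84 and 2.82 RPM. Trim21 was 5.89, 5.99 and 10.9 RPM in WT and 3.99, 15.6 and 8.23 RPM in Nedd4L-cKO, and Trim34a 7.47, 10.2 and 7.37 RPM and 4.62, 14.1 and 8.22 RPM, both with Nedd4L-cKO library 02 the highest. Trim26 was 31.8, 41.9 and 25.1 RPM in WT and 21.1, 32.9 and 27.5 RPM in Nedd4L-cKO. Trim14 was 1.16, 0.834 and 0.897 RPM in WT and 0.993, 0.0688 and 2.97 RPM in Nedd4L-cKO. Trim30a was 0.0147, 0.0183 and 2.39 RPM in WT and 0, 1.13 and 0.560 RPM in Nedd4L-cKO, and Trim34b 0.990, 0.141 and 0.0671 RPM and 0.0887, 0.434 and 0.405 RPM. The groups overlapped for both of these low genes. In the same libraries the interferon response genes summed to 399 to 649 RPM in WT and 993 to 1101 RPM in Nedd4L-cKO, and 2 of 23 were called higher, Rtp4 (2.40) and Ifit1 (2.26), with 0 called lower by limma (0 lower at an unadjusted p under 0.05 and 14 higher).

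The other classes with named members gave no call either. Trim28 was 57.9, 58.2 and 68.6 RPM in WT and 66.8, 64.0 and 70.8 RPM in Nedd4L-cKO, with a 95% interval of -0.38 to 0.64 for the log2 fold change. Trim33 was 39.5, 44.2 and 44.6 RPM in WT and 14.2, 42.9 and 26.6 RPM in Nedd4L-cKO (-0.73 ± 0.35, adjusted p = 0.375), and Trim24 was 17.2, 20.02 and 17.2 RPM and 9.53, 14.1 and 19.2 RPM. Each had 1 Nedd4L-cKO library within the WT range. Trim32 was 9.93, 7.87 and 5.18 RPM in WT and 7.32, 7.05 and 7.87 RPM in Nedd4L-cKO, a log2 fold change of -0.0034. Among the partners, Ube2v1, the E2 cofactor that makes Lys63-linked chains with Ube2n, was 225 to 315 RPM in WT and 61.5 to 132 RPM in Nedd4L-cKO and was the 1 of 9 E2 genes called (-1.48 ± 0.30, adjusted p = 0.0490). Ube2n had -0.50 and Ube2d1 -1.36 with adjusted p of 0.392 and 0.115.

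The 2 comparisons share no library and can be set side by side. Of the 43 TRIM genes tested in both, 18 (41.9%) had log2 fold changes of one sign in both, against 48.0% of 14343 genes. Trim2 had -1.86 between myoblasts and MuSCs and -0.78 between Nedd4L-cKO and WT, and Trim55 had 4.15 and 1.25. Trim35 had 1.64 and -0.75, and Trim39 -0.15 and -0.92.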

How the data were processed

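The 12 SMART-seq libraries, 3 in each of 4 groups, were each made from 1000 cells. Groups and replicate numbers were taken from the sample labels. The authors quantified transcripts with kallisto 0.46.1 (single-end, fragment length 200, SD 20) on the GENCODE M28 basic transcripts, collapsed the estimates to gene level (tximport) and normalized them in DESeq2. This normalized count is the signal the authors deposited, in 1 table per comparison. Only 44.4% to 62.3% of low values, depending on the library, came out as whole multiples of a fitted step, so reads were not recovered and the depth is unknown. Estimated counts of overlapping or near-identical TRIM genes depend on how kallisto divided shared reads. The authors' fold changes and p-values in the tables, and 18 further per-sample columns of the genotype table, were not used.

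RPM was obtained from normalized counts with the mean of a table's 6 totals. Genes were kept when 3 or more of the 6 libraries had 10 or more normalized counts. Each table was tested by itself with limma 3.58.1 in R 4.3.3 on log2(RPM + 1) (lmFit, eBayes with trend and robust), with no term beside group, and p-values were adjusted by Benjamini-Hochberg over the genes kept. Fold changes on this scale understate those of low genes. With 3 against 3 libraries the smallest two-sided p of an exact permutation test is 0.1, so no such test is given. The test was checked on simulated data with known changes.

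The members, the TRIM classes, the partner and marker lists and the rule for named genes were chosen with earlier results of these data known. Values in every library are given for members called between the genotypes, for the 8 called members with the largest rise and the 8 with the largest fall in myoblasts, for the tested members of the muscle-specific, PHD-bromodomain, NHL and antiviral PRY-SPRY classes, for the 5 highest per kilobase in fresh MuSCs and for the 5 smallest p between the genotypes. Other members are given by counts and fold changes, and Trim23 and Trim43b were added after their values were seen. The series' design text states that the myoblasts were grown from cells of the same mice as the fresh MuSCs, and a shared replicate number was taken to mark the mouse, which the labels do not spell out. The correlations of the same-numbered libraries' deviations were -0.03, -0.01 and 0.02. WT and Nedd4L-cKO libraries of one number are different mice. Alternatives were the replicate number as a block, other scalings, a pseudocount of 0.1 RPM, other filters, limma without trend and robust, other thresholds, transcript length and each library left out.

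Positions and exonic lengths came from GENCODE M39 (GRCm39) and the windows of 250 bases before a gene's start from RefSeq on GRCm38.p6, where 42 of the 56 members were found. Plots were drawn in matplotlib 3.10.9 under Python 3.11.15. Some genes of the listed pathways are not reported here by name.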

Additional observations from a re-analysis of the deposited data

How the results depend on the processing

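Of 721 values, for 36 members between the states and 23 between the genotypes, 658 kept their direction and their side of the threshold, 34 lost and 4 gained a call, and 25 changed sign, none of them called. A further 46 had no value since the gene fell below the filter. The count of TRIM genes called between myoblasts and MuSCs was 25, and 24 to 26 with the number as a replicate block (24), own-total scaling, median-of-ratios factors, a pseudocount of 0.1 RPM, no filter and plain moderation, and was 23 with a log2 fold change of 1 required. It was 16 when every library had to hold 10 normalized counts, since the 10 lost genes, Trim54, Trim63 and Trim72 among them, then failed the filter and Trim6 was gained. It was 17 to 23 with 1 library left out, lowest without myoblast 05. Calls over all genes also fell without myoblast 05, from 6566 of 15345 to 4593 of 14474. Without a myoblast library Trim66, Trim72 and Trim9 could not reach the filter, and nor could Trim17 without a Nedd4L-cKO library. Own-total scaling moved the median log2 fold change of all genes from 0.04 to 0.14, and the split of calls was then 14 higher and 11 lower. Between the genotypes the count of calls was 0 under every alternative run, the replicate block (0) included. The count of members without overlap was 8 to 14 with 1 library left out. Fewer values then have to separate for any gene, and the share over all genes is not given for these settings. The replicate block changed no call but those of Trim29, Trim41 and Trim9.

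Signs that turned belonged to values near 0. With own-total scaling Trim24 had 0.055 and Trim26 0.098 between the states and Trim28 -0.00044 between the genotypes. With a pseudocount of 0.1 RPM, Trim14, Trim30a, Trim32 and Trim34b had -0.35, 0.42, 0.0016 and 0.071 between the genotypes. With 1 library left out, the myoblast differences ran from -0.25 to 0.26 for Trim24, -0.21 to 0.13 for Trim26, -0.28 to 0.12 for Trim30b and -0.23 to 0.36 for Trim59. The genotype differences ran from -0.038 to 0.42 for Trim12a, -0.42 to 0.52 for Trim14, -0.29 to 0.58 for Trim21, -0.32 to 0.26 for Trim30a, -0.23 to 0.18 for Trim32, -0.36 to 0.35 for Trim34a and -0.21 to 0.080 for Trim34b. The cause was not tested. With the longest transcript as length the 5 genes of highest level per kilobase in fresh MuSCs were the same 5, but Trim35 passed Trim47. A pseudocount of 0.1 RPM enlarged the changes of low genes, among them Trim12c (-2.75), Trim34a (-4.43), Trim71 (2.51), Trim29 (-2.20) and Trim46 (2.73) between the states and Trim17 (2.93) between the genotypes. The number of libraries and the unknown depth limit what can be seen of genes near 0 RPM.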
